A study of Homo sapiens with 36 samples.

Results

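CTCF peaks were examined at 3 developmental loci on chromosomes 17, 2 and 7 of HEK293T cells, a human embryonic kidney line. The members were all peaks in 6 deposited CTCF lists that overlapped 1 of 3 windows of hg19: chromosome 17 from 67800000 to 70600000 (KCNJ2 and SOX9), chromosome 2 from 219200000 to 223600000 (WNT6, IHH, EPHA4 and PAX3) and chromosome 7 from 155400000 to 156900000 (SHH and LMBR1). The windows were set by position and not by any peak value, though they were chosen with earlier results of these data known. They held 475 of the 179333 peaks in the 6 lists. They are called the SOX9, EPHA4 and SHH windows here. Cells had been transfected with a control small interfering RNA (siNC) or with one against CHD3, CHD4, CHD5, MBD2 or MBD3, subunits of the nucleosome-remodelling and deacetylase complex NuRD. Each condition had 3 CTCF chromatin immunoprecipitates and 3 inputs, and each list pooled the 3 immunoprecipitates of its condition. There was therefore no spread between replicates for any value, and no test between conditions was made. How far each small interfering RNA lowered its target was not analysed here.

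CTCF is a zinc-finger protein that halts the extrusion of chromatin loops by cohesin, so that its sites form the borders of contact domains. A border keeps the enhancers of one gene from acting on the gene next door, and its deletion, inversion or duplication can redirect an enhancer. SOX9, a transcription factor of cartilage and testis, lies in a domain beside that of KCNJ2, a potassium channel gene, and duplications across their border underlie a digit and nail syndrome. At EPHA4, which encodes an ephrin receptor, rearrangements bring its limb enhancers to PAX3, a transcription factor of neural crest and muscle, to WNT6, a secreted Wnt ligand, or to IHH, a hedgehog ligand of growing cartilage. SHH, the hedgehog ligand that patterns the limb, is driven in the limb bud by an enhancer inside an intron of LMBR1, a membrane protein gene. HEK293T is no limb cell, and expression of these genes was not measured here.

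The gene content of the windows differs, as read from the gene order of RefSeq (GRCh38.p14). No protein-coding gene lies between KCNJ2 and SOX9 or between EPHA4 and PAX3. Between SHH and LMBR1 there is 1, RNF32. In contrast, 5 lie between WNT6 and IHH, and 27 between IHH and EPHA4, among them DES and INHA. Positions of genes in hg19 were not used here, so no peak is assigned to a gene, exon or intron below.

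In control cells the windows held 99 CTCF peaks, 18 in the SOX9 window, 69 in the EPHA4 window and 12 in the SHH window. Peak density was 6.43 per Mb in the SOX9 window, 15.7 in the EPHA4 window and 8.00 in the SHH window. On either side of the SOX9 window, stretches of the same length held 50 and 61 siNC peaks, so this window was sparser than both neighbours. The SHH window was also sparser than its neighbours, which held 22 and 21 peaks. The EPHA4 window held more than its neighbours, which had 57 and 45. Fold enrichment, the authors' ratio of summit signal to local background, had a median of 4.80 over the 99 peaks, against 5.22 over all 36270 siNC peaks of the genome. Of the 99, 5 were in the top 10% of siNC peaks by fold.

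Fold and q are the authors' own values for each peak, and folds of different lists are printed side by side only as the values listed. Their scale can differ from list to list, for reasons not separated here, so a peak is ranked only against the other peaks of its own list. Depth differed between lists. Solving fold and p for each peak gave a floor of background coverage for each list, in fragments per bp. That floor was 0.374 in siMBD3, 0.445 in siCHD3, 0.640 in siMBD2, 1.06 in siCHD4, 1.95 in siCHD5 and, highest of the 6, 2.96 in siNC. A control peak with no overlapping knockdown peak is called missing, which says that it was not called in a shallower pooled list.

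**Figure D1:**
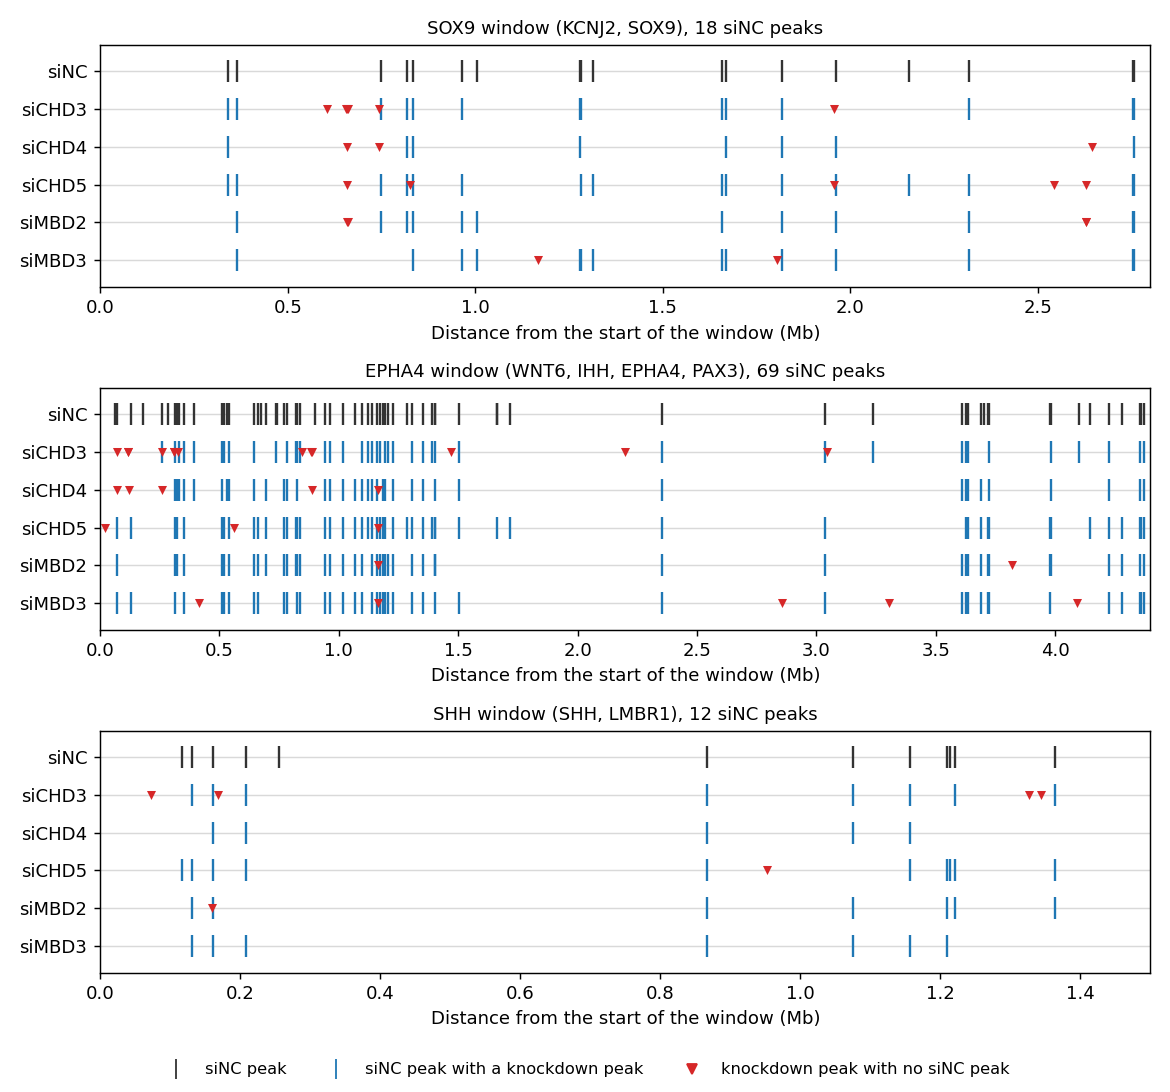
CTCF peaks along the SOX9, EPHA4 and SHH windows, with distance from the window's start in Mb on the x axis and the 6 lists as rows. Dark ticks are the 18, 69 and 12 siNC peaks, blue ticks are siNC peaks with an overlapping peak in that knockdown list, and red triangles are knockdown peaks without a siNC partner. With 11, 43 and 5 peaks, the siCHD4 row is the emptiest in each window. The siCHD4 list is also the shortest over the genome, with 25358 peaks against 25848 in siMBD3 and 36270 in siNC.

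In the SOX9 window, 1 control peak stood above the rest. It lay at chromosome 17 from 69617080 to 69617492, with a fold of 11.1 and a −log10 q of 63.2, at percentile 98.6 of siNC peaks by fold. The other 17 had folds between 3.83 and 6.23. The strong site was called in all 5 knockdown lists, with a fold of 43.6 in siCHD3, 23.8 in siCHD4, 10.9 in siMBD3, 9.84 in siMBD2 and 6.58 in siCHD5. Within its list this was percentile 98.9 in both siCHD3 and siCHD4, 94.6 in siMBD3 and 91.9 in siMBD2. In siCHD5 it was at percentile 50.6, near the middle of the list, with 29 fragments at the summit over a background of 3.56. Summits in the 5 knockdown lists lay 1 to 6 bp from the siNC summit, so the same position was called each time.

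The next 3 control peaks of the SOX9 window by fold were all missing in siCHD4 and present in the other 4 knockdown lists. The first, from 68763242 to 68763580, had a siNC fold of 6.23 with 116 fragments at its summit, and folds of 6.96 in siCHD3, 7.97 in siCHD5, 6.92 in siMBD2 and 4.09 in siMBD3. The second, from 68164222 to 68164538, had a siNC fold of 6.06 with 74 fragments. The third, from 70114793 to 70115107, had a siNC fold of 6.04 with 121 fragments, more than any other siNC peak of the window. None of these 3 had a siCHD4 peak within 1 kb. The fifth by fold, from 69080449 to 69080715 (fold 5.90), was called in siCHD4 but was missing in siCHD5 and siMBD2.

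The SOX9 window was thinly filled, with a median of 130.2 kb between neighbouring control peaks and no more than 2 in any 100 kb bin. Of its 28 bins, 15 held no siNC peak. The longest stretch without one ran 438 kb, from 70115108 to 70553061, and began right after the last of those 3 peaks. Of the 18 control peaks, 3 were called in all 5 knockdown lists (16.7%, against 32.6% of siNC peaks of the genome). These were the strong site, a peak from 68632671 to 68633031 (fold 4.82) and one from 70556353 to 70556748 (fold 4.52). No control peak of this window was missing from all 5 (0 of 18, against 7.95% of siNC peaks of the genome). No interval was computed for these 2 shares of 18 peaks, and their difference from the genome was not tested.

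In the EPHA4 window, control peaks were crowded at one end and rare in the middle. Of the 69, 50 lay before position 220918928, a density of 29.1 per Mb, and 19 lay in the remaining 2.68 Mb, at 7.09 per Mb. The densest 100 kb bin, from 220300000 to 220399999, held 6 siNC peaks. After position 220918927 came the 2 longest stretches without a siNC peak in the 3 windows, of 633 and 685 kb. A single peak, from 221551957 to 221552313, parted them. That isolated peak had a fold of 4.88 in siNC and was called in every knockdown list, with folds of 9.38 in siMBD2, 6.32 in siCHD5, 5.54 in siMBD3, 5.13 in siCHD3 and 5.11 in siCHD4. Its rank among the peaks of its list ran from percentile 26.9 in siMBD3 to 89.2 in siMBD2.

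The strongest control peak of the EPHA4 window, from 222808888 to 222809246, had a siNC fold of 9.09 from 35 fragments at the summit. Its fold was 33.0 in siCHD3, 14.1 in siCHD4, 6.35 in siMBD2 and 10.2 in siMBD3, and it was missing in siCHD5. It stood at percentile 98.3 of the siCHD3 list, 97.1 of siCHD4, 95.3 of siNC and 91.8 of siMBD3, but at 44.6 in siMBD2. Beyond it lay the widest control peak of the 3 windows, from 222826597 to 222828496. At 1900 bp it was exceeded or equalled in width by 14 of 36270 siNC peaks, itself among them, and it was the only 1 of the 99 with several summits, 5 of them. The same peak was 1930 bp wide with a highest fold of 57.6 in siCHD3, 1882 bp with 19.0 in siCHD4, 1605 bp with 10.4 in siCHD5 and 1578 bp with 9.51 in siMBD3. In siMBD2 it was called as 2 peaks of 679 and 600 bp, with a highest fold of 6.63.

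Other strong control peaks of the EPHA4 window were called in all 5 knockdown lists. They lay from 220298582 to 220298897 (siNC fold 8.70), 219844580 to 219845129 (8.41) and 220554366 to 220554799 (7.80). The first of these, named for its high siNC fold, was at percentile 94.1 in siNC and ranked lower in the knockdown lists. It was at percentile 74.2 in siMBD2, 52.7 in siCHD5, 37.5 in siMBD3, 32.3 in siCHD3 and 24.1 in siCHD4. The second was at percentile 98.4 in siCHD5, 95.1 in siMBD2, 87.2 in siCHD3, 87.1 in siCHD4 and 42.6 in siMBD3, against 93.0 in siNC. By q, the leading peak was from 223555294 to 223555696, with a −log10 q of 128 in siNC and 253 fragments at the summit. It had a fold of 7.62 in siNC and from 5.38 (siCHD4) to 11.2 (siMBD3) in the knockdown lists.

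Altogether 24 of the 69 control peaks of the EPHA4 window were called in all 5 knockdown lists (34.8%, against 32.6% of the genome). Another 8 were called in none of them (11.6%, against 7.95% of the genome), and these 8 also had no knockdown peak within 1 kb. By siNC fold they were led by 220099472 to 220099672 (fold 6.06), 219482933 to 219483344 (5.13) and 219942982 to 219943185 (5.13), followed by 219381396 to 219381646 (4.94) and 219874950 to 219875150 (4.80). The summits of these 5 rested on 23 to 43 fragments. Of the 8, 7 lay in the crowded end of the window, which held 50 of its 69 control peaks.

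In the SHH window the 12 control peaks formed a group at each end, 5 before position 155655533 and 7 from position 156266217 on, parted by a stretch of 611 kb without a siNC peak. The strongest, from 155561004 to 155561325, had a siNC fold of 7.74 and was called in every knockdown list, with folds of 13.3 in siCHD5, 9.63 in siMBD2, 9.44 in siMBD3, 7.81 in siCHD3 and 7.05 in siCHD4. The peak that closes the empty stretch, from 156266217 to 156266591 (siNC fold 6.32), was the only other one called in all 5. These 2 of the 12 made up 16.7%, against 32.6% of siNC peaks of the genome. The summits of both lay within 14 bp of the siNC summit in every list. The second strongest, from 156762836 to 156763129 (fold 6.39), was missing in siCHD4 and siMBD3. The peak from 156556800 to 156557070 (fold 6.08) was missing in siMBD2 only, and the one from 156620262 to 156620586 (fold 4.83) in siCHD4 and siMBD3. Called in no knockdown list was 1 of the 12 (8.33%, against 7.95% of the genome), from 155655332 to 155655532 (fold 4.80). It had no knockdown peak within 1 kb in any list, and its summit held 18 fragments, the fewest of the 12.

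A weak control peak of the SHH window was strong in 2 knockdown lists, an entry singled out after its values were seen. From 156474554 to 156474797, the siNC fold was 3.81, at percentile 16.5. The fold was 15.6 in siCHD3, at percentile 95, and 8.67 in siCHD4, at percentile 92.0. It was 3.88 in siMBD2 and 4.94 in siMBD3, at percentiles 4.79 and 17, and the peak was missing in siCHD5.

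The SOX9 site at 69617080 and the EPHA4 sites at 222808888 and 222826597 shared a high rank in both the siCHD3 and siCHD4 lists. These 3 were the only ones of the 99 control peaks in the top 5% of both lists by fold (3.03%). The same held for 1183 of the 36270 siNC peaks of the genome (3.26%), so the share in the windows was near that of the genome. Among the 1183, 415 (35.1%) were also in the top 5% of siNC, and 322 were missing in siCHD5.

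**Figure D2:**
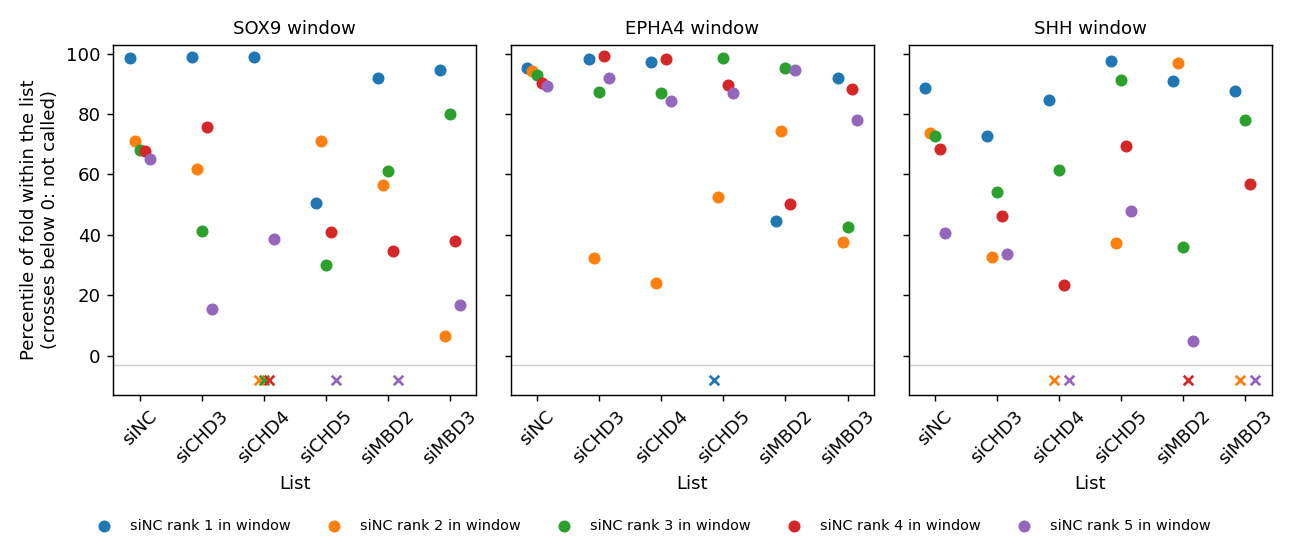
Percentile of fold within each list (y axis) for the 5 control peaks of highest siNC fold in each window, by list (x axis), with colours for their siNC order and crosses below 0 for peaks not called. The first SOX9 peak is above percentile 91 in every list but siCHD5, where it is at 50.6, and the next 3 are crosses in siCHD4.

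The question the design poses is whether CTCF occupancy changes when a NuRD subunit is depleted. Of the 99 control peaks, 48 were missing in siCHD4 (48.5%, interval 38.3 to 58.7) and 21 in siCHD5 (21.2%, interval 13.6 to 30.6), the highest and lowest counts of the 5 lists. The siCHD3, siMBD2 and siMBD3 lists each lacked 35 of 99 (35.4%, interval 26 to 45.6). The intervals are exact Clopper-Pearson 95% intervals and cover counting error only. Over all siNC peaks of the genome the shares missing were 41.5% for siCHD4, 38.5% for siMBD3, 35.4% for siCHD3, 34.9% for siMBD2 and 21.5% for siCHD5. Each genome value lay inside the interval of the windows, so no difference from the genome was detectable with 99 peaks. The 5 comparisons share the one siNC list.

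Window by window, the SOX9 peaks were missing least often in siCHD5, 2 of 18 (11.1%, interval 1.38 to 34.7), and most often in siCHD4, 10 of 18 (55.6%, interval 30.8 to 78.5). The siCHD3 and siMBD3 lists each lacked 4 of the 18 (22.2%, interval 6.41 to 47.6) and siMBD2 6 (33.3%). In the SHH window siCHD4 lacked 7 of 12 (58.3%, interval 27.7 to 84.8), siMBD2 and siMBD3 5 each, siCHD3 4 and siCHD5 2. In the EPHA4 window the counts were 31 of 69 in siCHD4 (44.9%, interval 32.9 to 57.4), 27 in siCHD3, 26 in siMBD3, 24 in siMBD2 and 17 in siCHD5. The order in the EPHA4 window changed with the length of the lists. With each list cut to its 25358 peaks of smallest p, siCHD3 lacked 14 of 46 (30.4%), siCHD4 12 (26.1%), siMBD3 7 (15.2%), siMBD2 5 (10.9%) and siCHD5 2 (4.35%). The neighbouring stretches of the SOX9 window lacked 46.0% and 45.9% of their siNC peaks in siCHD4, and 44.0% and 41.0% in siCHD3. All 4 values lay inside the SOX9 interval of the same list. In siCHD4 the neighbours of the EPHA4 window lacked 31.6% and 48.9%, and those of the SHH window 50.0% and 57.1%. Restricting both lists to peaks whose −log10 q reached 10, the SOX9 share missing was 82.4% in siCHD4 (14 of 17), 64.7% in siCHD3, 58.8% in both siMBD2 and siMBD3, and 17.6% in siCHD5. The genome shares at this threshold were 59.4%, 59.1%, 50.7%, 61.2% and 18.2% in the order siCHD4, siCHD3, siMBD2, siMBD3 and siCHD5. With the threshold on siNC only, the SOX9 share was 52.9% in siCHD4 and 17.6% in siCHD3, so the rise appeared only when the knockdown list was held to it too.

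**Figure D3:**
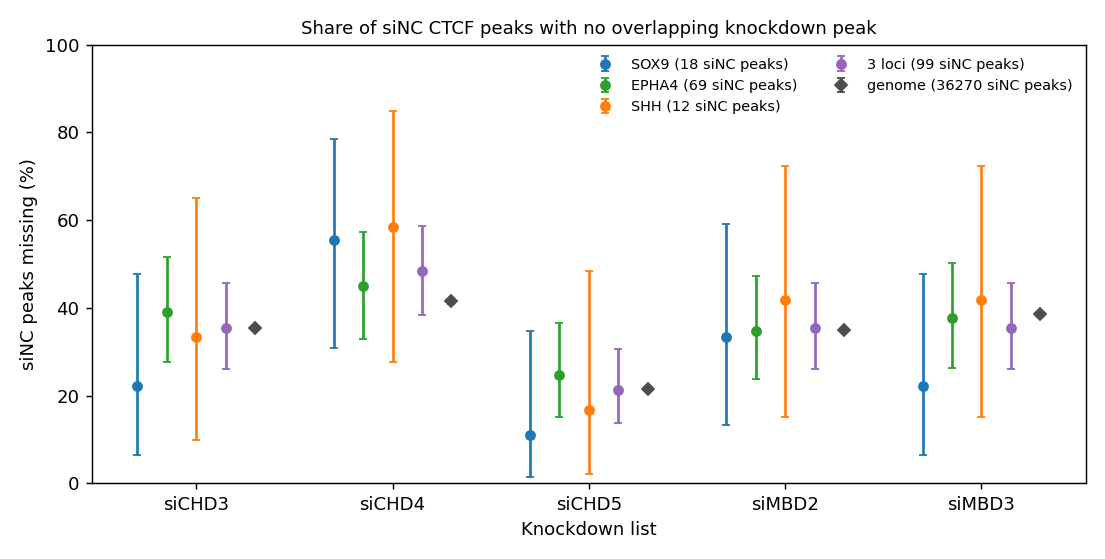
Percentage of siNC peaks with no overlapping peak (y axis) in each knockdown list (x axis), for each window, the 3 windows together and the genome; bars are exact 95% intervals. Every genome value lies inside the interval of the 3 windows, and siCHD4 has the highest value for the windows together at 48.5%.

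Missing peaks were mostly the weaker ones. Over the 3 windows the median siNC −log10 q was 13.5 for peaks missing in siCHD4 and 31.3 for those kept, and 9.49 against 26.1 in siCHD5. Their summits held fewer fragments, with a median of 39 against 80.0 in siCHD3 and 34.0 against 83.5 in siMBD3. The SOX9 window went the other way by fold in siCHD4. Its 10 missing peaks had a median siNC fold of 5.11 and its 8 kept peaks 4.44, whereas over the genome missing peaks had 4.66 and kept ones 5.65. Of those 10, 5 were called in all of the other 4 knockdown lists (50.0%), against 2530 of the 15047 siNC peaks of the genome missing in siCHD4 (16.8%).

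The strongest control peaks with no knockdown peak within 1 kb differed from list to list. In the EPHA4 window the peak from 219523342 to 219523636 (siNC fold 7.48) led in both siCHD3 and siMBD3, 220374474 to 220374783 (6.51) in siCHD4, 222808888 to 222809246 (9.09) in siCHD5 and, tied in siMBD2, 219730835 to 219731041 and 220099472 to 220099672 (both 6.06). In the SOX9 window they were 69114267 to 69114552 (fold 5.37) in siCHD3, 68804817 to 68805018 (3.86) in siCHD5 and 69955356 to 69955565 (4.64) in siMBD3, beside the siCHD4 and siMBD2 peaks described above. In the SHH window the siCHD3 list lacked 156609697 to 156610025 (fold 4.80), and the leading ones of the other lists are given above. The fold of 9.09 at 222808888 was the highest of any missing peak in the 3 windows.

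The depth of the knockdown lists bears on these counts. Each siNC summit was thinned by calculation to the coverage of a knockdown list, which gives its chance of still passing that list's smallest −log10 p. On this basis the calculation gave 41.5 missing peaks of the 99 for siMBD3 and 32.6 for siCHD3, where 35 were missing in each. For siMBD2 it gave 22.3 where 35 were missing, for siCHD4 9.18 where 48 were, and for siCHD5 0.977 where 21 were. The genome showed the same gaps. There the calculation gave 12.2% missing for siCHD4 where 41.5% were, 3.05% for siCHD5 where 21.5% were and 24.2% for siMBD2 where 34.9% were. Among peaks with a chance above 0.9 of a call in siCHD4, 8 of 15 were missing in the SOX9 window (53.3%), 13 of 47 in the EPHA4 window (27.7%) and 4 of 8 in the SHH window (50.0%), against 31.3% over the genome. For siMBD3 no peak of the windows with such a chance was missing, of 19, against 6.98% over the genome. The calculation holds no variation between libraries, so a gap between expected and observed numbers cannot be told apart from such variation.

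**Figure D4:**
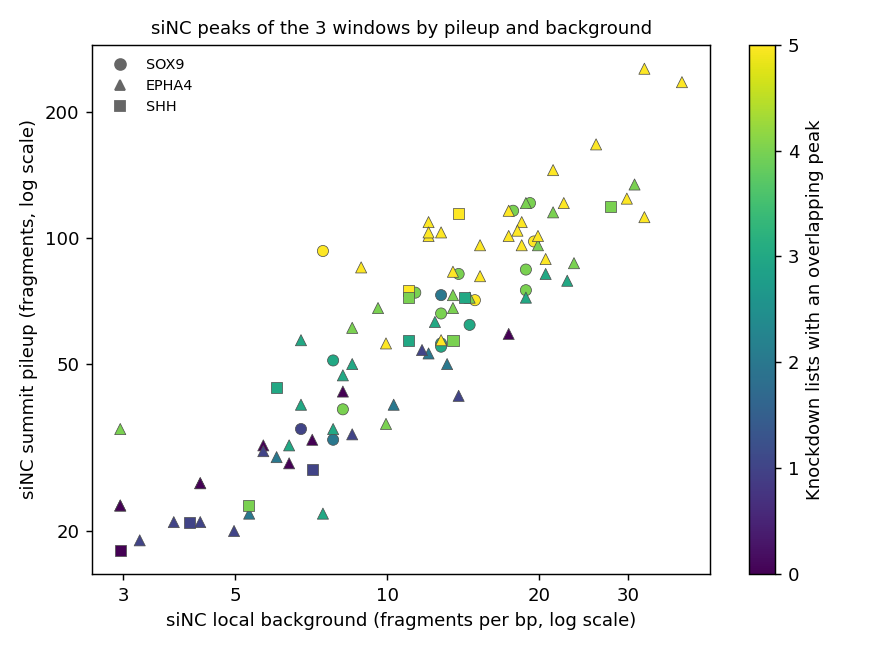
Summit pileup (y axis, fragments) against local background (x axis, fragments per bp) in siNC for the 99 control peaks, both on log scales, with symbols for the windows and colour for the number of knockdown lists holding an overlapping peak. Peaks called in 5 lists lie mostly at higher pileups, and the SHH peak with 18 fragments, called in none, is the lowest point.

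Over the 3 windows together, peaks added in a knockdown, those with no overlapping siNC peak, made up shares close to those of the whole lists. There were 23 of 87 in siCHD3 (26.4%, against 32.6% of the peaks of that list), 8 of 59 in siCHD4 (13.6%, against 16.8%), 9 of 87 in siCHD5 (10.3%, against 9.41%), 7 of 72 in siMBD2 (9.72%, against 9.3%) and 7 of 71 in siMBD3 (9.86%, against 13.4%). The 23 of siCHD3 had 4 to 11 fragments at the summit, and the highest fold among them was 6.92, at chromosome 2 from 220047652 to 220047925. Their median fold was 4.85, as it was for added siCHD3 peaks of the genome, and in siCHD5 the medians were 4.82 and 4.74. None of the 23 reached a −log10 q of 10, against 11.3% of added siCHD3 peaks of the genome. In siCHD5, 3 of the 9 did (33.3%, against 30.4%), and the highest fold there was at 219221244 to 219221642 (fold 7.38, 30 fragments). The added siCHD5 peak of highest fold in the SOX9 window was from 69756527 to 69756797 (fold 5.29, 25 fragments). In siCHD4 it was from 68459299 to 68459791 in the SOX9 window (fold 4.64) and from 219270179 to 219270452 in the EPHA4 window (fold 5.82). Among EPHA4 peaks of siCHD4 with no siNC peak within 1 kb, it was from 219319383 to 219319717 (fold 3.62). In the SHH window the siCHD3 peak was from 155473310 to 155473531 (fold 5.55). There siCHD4 and siMBD3 listed no added peak, while siCHD5 listed 1, from 156352844 to 156353045 (fold 6.06), and siMBD2 1, from 155560365 to 155560573 (7 fragments at the summit).

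An added site in the EPHA4 window recurred in 4 lists. Between 220364878 and 220365210, siMBD2 had a fold of 8.12 (25 fragments), siMBD3 6.97 (20 fragments), siCHD5 5.33 (46 fragments) and siCHD4 3.52 (29 fragments). Neither siNC nor siCHD3 had a peak there, and the nearest siNC peak was 4.40 kb away. Of the 54382 regions formed by merging the peaks of all 6 lists over the genome, 26 (0.0478%) were called in just these 4 lists. The windows held no region that all 5 knockdown lists called and siNC did not, a pattern of 46 regions over the genome (0.0846%).

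The second longest stretch of the SOX9 window without a siNC peak was singled out after its values were seen. Any knockdown peak inside such a stretch counts as added by definition. Between 68164539 and 68548665, where siNC had no peak over 384 kb, siCHD3 had 5 added peaks, siCHD4 and siMBD2 2 each, siCHD5 1 and siMBD3 none. They lay between 68404304 and 68542888, and none had more than 12 fragments at the summit. Near the end of the window, siMBD2 had an added peak from 70426963 to 70427189 (fold 6.71) and siCHD5 one from 70427048 to 70427376 (fold 4.82). In siMBD3 the added peak of highest fold in this window was from 69605044 to 69605278 (fold 8.01 from 10 fragments). It lay at a lower position than the strong SOX9 site, whose siMBD3 fold was 10.9.

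When the peaks of all 6 lists were merged, the windows held 143 regions, 34 at SOX9, 91 at EPHA4 and 18 at SHH. Of these, 29 were called in all 6 lists (20.3%, against 21.7% of merged regions of the genome), 3 of them at SOX9, 24 at EPHA4 and 2 at SHH. Another 9 were called in siNC alone (6.29%, against 5.3%) and 18 in siCHD3 alone (12.6%, against 14.7%). All lists but siCHD4 called 11 regions (7.69%, against 4.64% of the genome), 5 of them in the SOX9 window. Where a control peak had a partner, the median distance between summits over the 3 windows was 6 to 12 bp in the 5 lists. All but 2 pairs had summits within 100 bp. Both exceptions were the 5-summit peak at 222826597, in siMBD2 and siMBD3, where another of its summits was the highest.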

How the data were processed

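Samples were 36, 3 CTCF immunoprecipitates and 3 inputs for each of 6 conditions, grouped by their titles. The build was hg19 and the tools were MACS2 2.1.2, Bowtie2 2.3.4, deepTools 3.5.0, FastQC 0.11.7, bedtools 2.25.0 and SAMtools 1.9, per the submitters' processing notes. The sources used here do not give what each did, its settings or how duplicate reads were treated. The deposited files were 6 lists in narrow-peak layout, named as peaks of 3 replicates together. The names give no control. They hold the authors' fold enrichment, a ratio at the summit, the deposited −log10 of p and of q, a deposited display score (not used) and the summit offset. The smallest −log10 q was 1.30 in the deposited siNC list.

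A peak listed with several summits was counted 1 time and took its highest-fold summit, on chromosomes 1 to 22 and X. Peaks sharing 1 bp counted as overlapping, and positions are 1-based. Pileup at the summit and local background were the pair of values that gave the listed fold, (pileup + 1)/(background + 1), and the listed p under a Poisson law. For 100% of peaks such a pair was found with whole fragments and p within 0.01%. Computation used Python 3.11.15, numpy 2.4.6, scipy 1.17.1 and pandas 2.3.3 and was tested on simulated data. Precision is limited by the number of peaks and by depth, read from background coverage since read totals were not used here.

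The windows, named-peak rule and alternatives were chosen with earlier results of these data known. Named were the 5 siNC peaks of highest fold in each window, those with no knockdown peak within 1 kb (at most 5), the strongest missing and added peaks per list and window (the leading ones are printed), regions called in all 5 knockdown lists only, the longest stretches without a siNC peak and the densest 100 kb bins. Others were named after their values were seen, among them the isolated EPHA4 peak, the widest peak, the peak of highest q, the weak SHH peak and the recurrent added site. Gene positions and the sequence under peaks were not analysed here, since the reference tables are of another build (GRCh38.p14), so no sequence is printed. Alternatives were other thresholds, overlap rules, list lengths, depth weighting and merging distances.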

Additional observations from a re-analysis of the deposited data

How the results depend on the processing

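No paired analysis was possible because each list pools its 3 replicates, and for the same reason no replicate could be left out. The overlap rules kept the share missing over the 3 windows, and the share added, inside the interval of the reported value in each of the 5 lists. Thresholds and list length moved them. Where both lists were held to a −log10 q of 10 or more, the share missing was 60.0% in siCHD3, 65.0% in siCHD4, 51.25% in siMBD2 and 60.0% in siMBD3. The genome shares at that setting were close, at 59.1%, 59.4%, 50.7% and 61.2% in the same order. With that threshold on siNC only the share missing in siCHD5 was 11.25%, against 9.38% over the genome. Lists of equal length (25358 peaks) gave 34.8% for siCHD4, 24.6% for siCHD3, 17.4% for siMBD2, 17.4% for siMBD3 and 5.80% for siCHD5. Over the genome they gave 30.5%, 30.3%, 19.2%, 24.2% and 13.2% in the same order. Over the 3 windows the siCHD4 share missing was the highest of the 5, and the siCHD5 share the lowest, under each alternative run. Within the EPHA4 window siCHD4 was not always the highest, as with lists of equal length. There siCHD5 was the lowest except under weighting by the chance of a call. That weighting gave 23.8% in siCHD5, 23.6% in siMBD2 and 21.8% in siMBD3 for the EPHA4 window. Over the 3 windows it gave 21% missing in siMBD3. The share added was 5.88% in siCHD3, 2.5% in siMBD2 and 3.03% in siMBD3 with the threshold in both lists. The genome shares were 18.3%, 2.48% and 2.77%. With the threshold on the knockdown list only, the share was 0% in siCHD3 (0 of 34), 0% in siCHD4 (0 of 30), 4.17% in siCHD5, 2.5% in siMBD2 and 3.03% in siMBD3. There the genome shares were 8.92%, 2.22%, 3.54%, 1.16% and 1.39% in the same order. Equal length lowered the share added to 17.5% in siCHD3 (11 of 63). It raised the share to 23.7% in siCHD4 (14 of 59), 17.1% in siMBD2 and 18.6% in siMBD3. In the windows siCHD4 and not siCHD3 was then highest, with siCHD5 at 8.45%. Over the genome the shares added at equal length were 30.5% in both siCHD3 and siCHD4. They were 18.9% in siMBD2, 23.9% in siMBD3 and 13.2% in siCHD5. At the threshold in all lists, merged regions fell to 88 by construction, with 10 called in all 6 lists. Depth limits the weak peaks most, and windows of 12 and 18 control peaks leave wide intervals.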
